A study of Mus musculus with 66 samples.

Results

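The genes described here encode the ligands and receptors of the classical axon guidance systems, namely ephrins and Eph receptors, semaphorins with plexins and neuropilins, Slits with Robo receptors, and netrins with Dcc and Unc5 receptors. They were chosen by gene symbol, and a gene was kept where its normalised read count was at least 10 in at least 2 libraries. Of 69 matching symbols among the 24410 genes of the deposited table, 68 were kept, and only Sema3g, with a highest value of 8.26, was not. The 68 genes comprise 9 EphA receptors, 5 EphB receptors, 5 ephrin-A and 3 ephrin-B ligands, 6 secreted and 13 membrane semaphorins, 9 plexins, 2 neuropilins, 3 Slits, 4 Robo receptors, 4 netrins and 5 netrin receptors.

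In these systems a ligand on or shed by neighbouring cells binds a receptor on the growth cone and attracts or repels the growing axon. In the developing spinal cord netrins draw commissural axons towards the ventral midline, Slits acting through Robo receptors keep them from crossing again, and semaphorins and ephrins sort axons of interneurons and motor neurons along their paths. Many of the same genes are also active in progenitors and glia, where ephrin and Eph contacts mark boundaries between cell groups and netrin is made by ventral progenitors.

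The libraries hold polyadenylated RNA of ventral spinal cord progenitors made from mouse embryonic stem cells and sorted after glyoxal fixation and intracellular staining, with 10000 to 15000 cells per population. Cultures of both genotypes received 10 ng/ml bFGF, then 5 µM of the GSK3 inhibitor CHIR99021 from day 2, then 100 nM retinoic acid with 10 nM of the Smoothened agonist SAG from day 3, and from day 5 SAG alone. The labels give a genotype (WT or MUT, with the mutated gene not named), the day of culture (D5, D7, D9, D11), the domain of the progenitors (p1, called p0-p1 in the series description, p2 or pM, the motor neuron progenitors) and a gate on the gliogenic transcription factor NFIA (NFIAn or NFIAp). WT was sampled in p1, p2 and pM as NFIAn at D5, D7 and D9, as NFIAp at D9 in p2 and pM, and as NFIAp at D11, whereas every MUT library is NFIAn. The 37 WT and 29 MUT libraries form 26 groups, of which 15 hold 3 libraries, 10 hold 2 and 1 holds 1 (MUT D9 p2). Nothing in the labels shows that libraries of a group are separate cultures. The p-values therefore reflect library-to-library spread, which may be technical.

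Recovered reads were 8.738 M in the shallowest library and 20.293 to 30.833 M in the others, with a median of 24.332 M. The 68 genes took 0.0246% to 0.1994% of the normalised counts of a library. The 18 libraries numbered replicate 3 at D7 or replicate 2 or 3 at D9 all had normalised totals of 26.591 to 40.225 M, above the 17.85 to 25.501 M of the other 48. Lists of transcription factors of each domain (6 genes for p1, 5 for p2 and 5 for pM) had their highest group mean on each day in the domain named, although the p2 list overlapped between domains at D5 in MUT. A list of 16 genes of postmitotic neurons, Tubb3 and Stmn2 among them, summed to 2300 to 14419 normalised counts in WT libraries at D5 and to 24864 to 46444 at D11. In p1 15 of these 16 genes were called higher at D11, in p2 15 and in pM 7, with none lower. Because these are bulk libraries, fewer cells of a type and less RNA per cell cannot be told apart.

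Promoter windows are shown for Eph receptors, because Ephb1, Epha5 and Epha3 were higher at D11 in every domain and Epha1 was lower in every domain, the only member called lower in all 3. Each window holds the 250 bases before the RefSeq start on GRCm38.p6, 5′ to 3′ on the gene's strand, with GC boxes (GGGCGG on either strand) in capitals.
Ephb1: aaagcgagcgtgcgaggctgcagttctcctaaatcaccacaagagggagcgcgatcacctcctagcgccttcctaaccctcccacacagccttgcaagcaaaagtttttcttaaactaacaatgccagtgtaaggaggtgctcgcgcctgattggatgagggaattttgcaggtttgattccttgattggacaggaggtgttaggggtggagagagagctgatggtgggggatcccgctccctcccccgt
Epha5: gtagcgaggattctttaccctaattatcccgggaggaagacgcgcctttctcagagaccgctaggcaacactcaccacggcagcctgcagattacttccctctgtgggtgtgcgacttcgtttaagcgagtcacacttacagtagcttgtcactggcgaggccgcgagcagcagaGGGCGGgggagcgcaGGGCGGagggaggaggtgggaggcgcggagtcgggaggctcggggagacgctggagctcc
Epha3: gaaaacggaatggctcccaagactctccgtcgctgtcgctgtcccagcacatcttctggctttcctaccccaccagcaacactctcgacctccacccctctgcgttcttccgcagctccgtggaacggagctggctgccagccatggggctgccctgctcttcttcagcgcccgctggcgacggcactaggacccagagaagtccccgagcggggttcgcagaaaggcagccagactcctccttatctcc
Epha1: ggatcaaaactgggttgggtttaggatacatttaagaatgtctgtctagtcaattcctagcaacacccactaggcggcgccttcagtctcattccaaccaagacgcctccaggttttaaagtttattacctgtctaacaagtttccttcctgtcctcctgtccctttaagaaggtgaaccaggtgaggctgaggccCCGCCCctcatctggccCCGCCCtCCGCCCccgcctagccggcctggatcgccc
The windows lie at chr9:102354694-102354943 for Ephb1, chr5:84417383-84417632 for Epha5, chr16:63864176-63864425 for Epha3 and chr6:42373269-42373518 for Epha1, all on the minus strand. Each ends at the base next to the gene as annotated in GENCODE M21. The Epha5 window holds 2 GC boxes at 62.4% GC, and the Epha1 window 3 at 54.4% GC. The Ephb1 and Epha3 windows hold none, at 54% and 62.8% GC. These 4 genes were picked for their change, and only Epha1 fell. Its calls in p2 and pM were lost with edgeR, as given below. The motif counts thus say nothing about the direction of change. Over the 74 windows of the 58 members with an entry, 70.3% held a GC box, against 32.7% of all 32851 windows of the same length. Members' windows were also richer in GC, with a median of 64.4% against 52.4%. An E-box (CAGCTG, either strand) was in 14.9% of members' windows and 13% of all. The full palindromic NFI site was in none of the members' windows and in 0.0365% of all, and the Gli site TGGGTGGTC in none and in 0.225%. At rates this low none is the likely count in 74 windows, so these 2 counts say nothing about the members.

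Per kilobase of annotated exon, the highest mean level over all libraries was that of Efna4, at 450.5 normalised counts per kb, followed by Ntn1 at 216.1, Plxnb2 at 160.3, Efnb1 at 156.7, Epha4 at 152.6 and Efna5 at 137.9. Efna4, a membrane-anchored ligand of EphA receptors, varied little, from 368 to 1150 normalised counts over the 66 libraries. At the other end Epha6 reached 10 normalised counts in only 2 libraries, Robo4 in 5 and Plxnb3 in 6, so these receptors were close to absent.

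The first comparison asked which members changed from D5 to D11 in WT, within each domain. In p1 27 of the 68 members were called at an adjusted p under 0.05, 22 higher and 5 lower at D11, a share of 39.7% against 27.7% of all 15714 genes tested (14% higher, 13.7% lower). In p2 17 were called, 15 higher and 2 lower, or 25% against 25.8% of all genes (14.2% higher, 11.5% lower). In pM 17 were called, 14 higher and 3 lower, or 25% against 20.4% of all genes (10.7% higher, 9.69% lower). The shares called were thus near the background in p2 and pM, while the called members were mostly higher at D11, where calls over all genes were nearly balanced. For p1, p2 and pM the members had a median log2 difference of 0.64, 0.55 and 0.41, against 0.00, 0.04 and 0.01 over all genes. Other lists moved over the same interval. The astroglial list of 13 genes summed to 10056 to 16737 normalised counts in the D5 libraries and 83714 to 198209 at D11, with 8, 8 and 7 of its 12 tested genes called higher in p1, p2 and pM and 1 lower in each. The mesenchymal list of 11 genes summed to 174 to 938 at D5 and 1373 to 7793 at D11, with 3, 7 and 4 genes called higher and none lower by limma. Of 12 genes of neurogenic progenitors 10, 7 and 4 were called higher in p1, p2 and pM and none lower. Of 9 neural crest genes 6, 5 and 2 were called higher, with 2 lower in p1 and 1 in p2. The part of these cells and of neurons in the members' values was not tested. All D11 libraries of WT are NFIAp and all D5 libraries NFIAn, so day and gate cannot be told apart here. Leaving out WT D11 p2 replicate 3 or WT D5 p2 replicate 3 left 11 calls in p2, and leaving out WT D11 pM replicate 2 or WT D5 pM replicate 3 left 11 and 10 in pM. A fit on only the compared groups left 8 in pM.

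**Figure D1:**
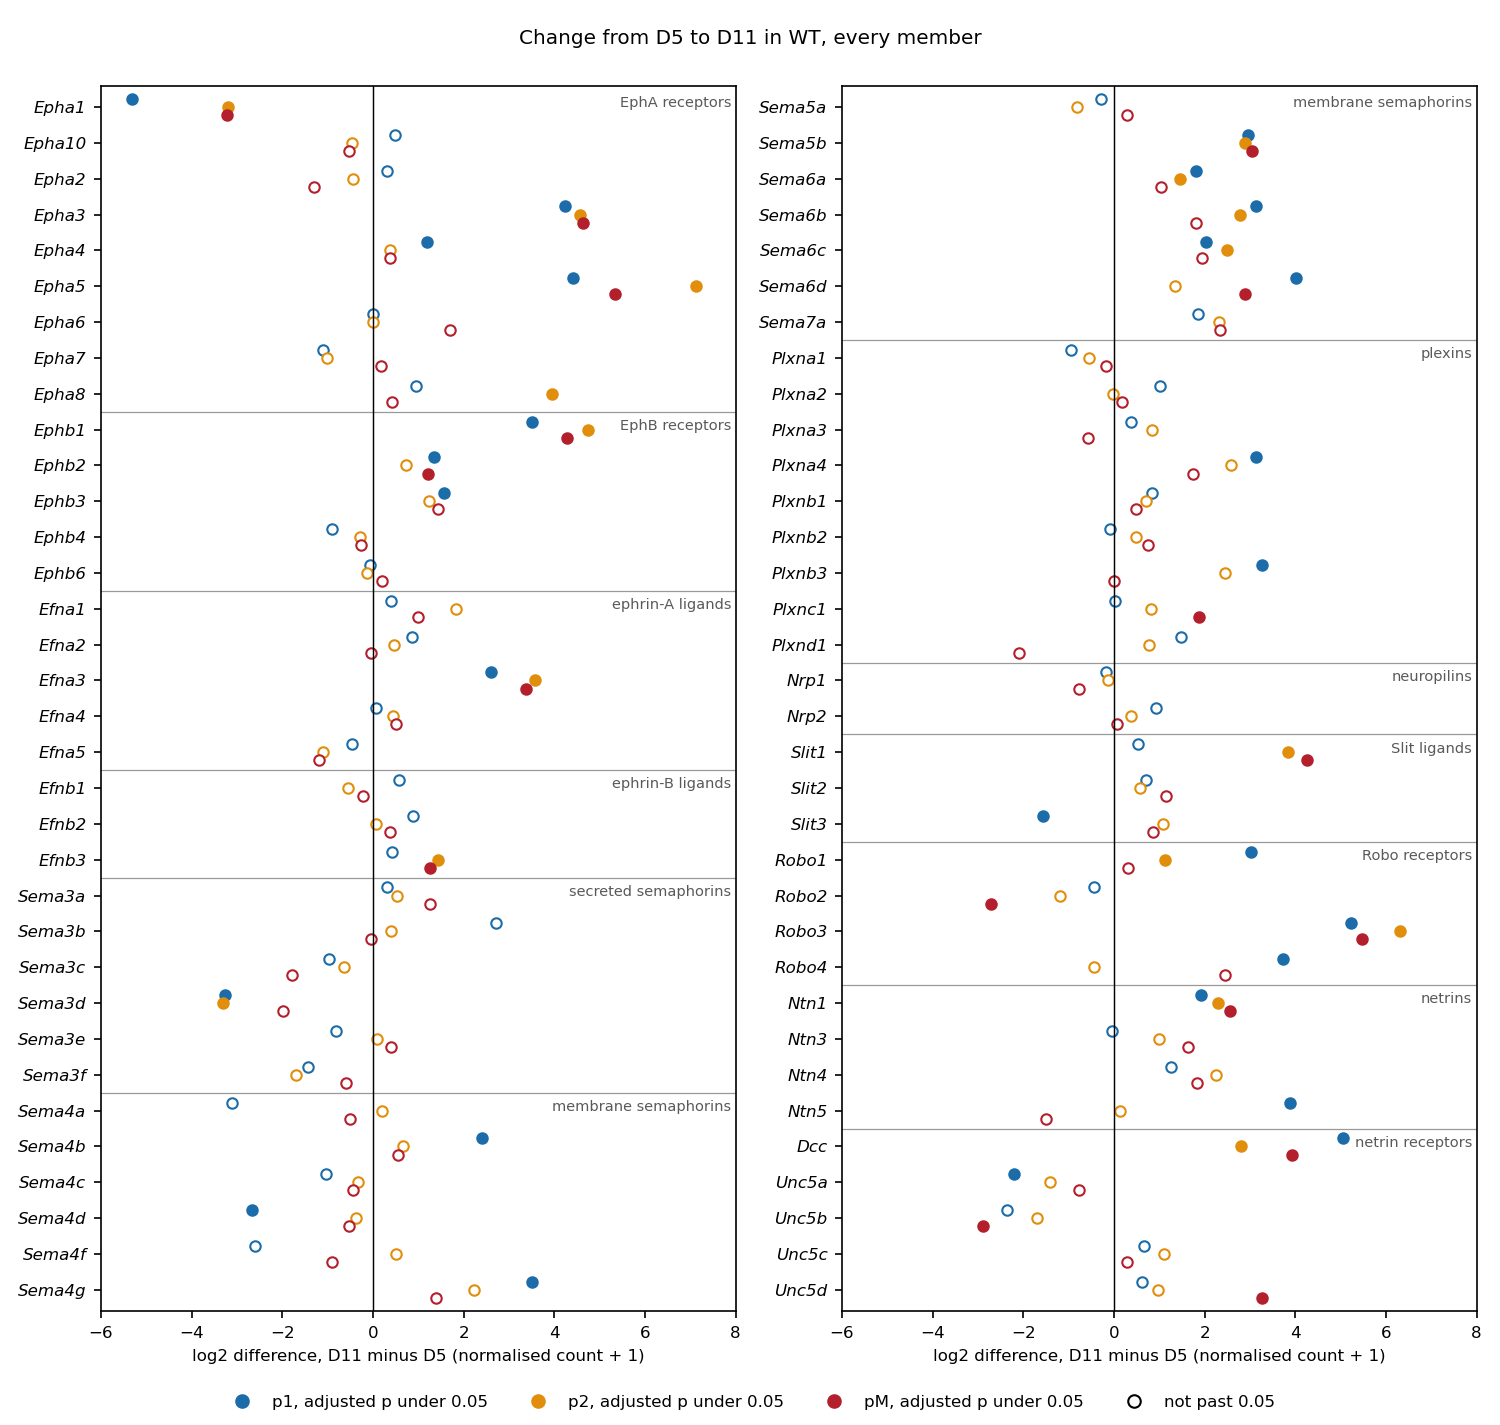
Change from D5 to D11 in WT for each of the 68 members, as log2 difference of normalised count + 1 (horizontal axis), grouped by family; colours are domains and filled points passed an adjusted p of 0.05. Most filled points lie to the right of 0, with Epha1, Sema3d, Sema4d, Slit3, Robo2, Unc5a and Unc5b the members with a filled point to the left.

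Across domains, 34 members were called in at least 1 domain. Of these, 27 were only higher, 7 only lower and none opposite. These counts, and that of members called in all 3 domains, were not made over all genes, so they have no background here. A call in some domains and not in others does not show that the domains differ. In limma only Robo1 passed a test of that difference, given below. Dcc, Efna3, Epha3, Epha5, Ephb1, Ntn1, Robo3 and Sema5b were higher in all 3 domains. They include receptors of 3 systems and the ligands Ntn1, Efna3 and Sema5b.

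Ephb1, a receptor of B-type ephrins, rose in every domain. In p1 it was at 37.1, 75.6 and 86.1 normalised counts in the D5 libraries and 605 and 843 at D11. In p2 it went from 88.6, 89.7 and 90.1 to 2521 and 2313, and in pM from 124 and 126 to 2874 and 2075. No D11 library overlapped a D5 library of its domain, and p2 and pM ended above p1. The log2 differences were 3.50 ± 0.61, 4.74 ± 0.61 and 4.28 ± 0.67 (SE of the limma fit, 2 libraries against 3, 3 and 2), with adjusted p of 1.4e-05, 3.8e-08 and 2.9e-06. In MUT, sorted as NFIAn on both days, Ephb1 was at 33.9 to 204 normalised counts in the 9 D5 libraries and at 679 to 1872 in the 6 D11 libraries, again without overlap. Epha5, a receptor of A-type ephrins, was at 1.99, 2.64 and 9.92 normalised counts at D5 in p2 and at 700.1 and 675 at D11. The 2 groups were far apart, with a log2 difference of 7.13 ± 0.69 and an adjusted p of 3.3e-11. Its differences in p1 and pM were 4.41 and 5.33. The related Epha3 was at 10.2, 15.3 and 23.5 in p1 at D5 and at 370.0 and 257 at D11, with log2 differences of 4.23, 4.56 and 4.63 in p1, p2 and pM. Epha1 went the other way, from 27.7 to 46.4 in the 3 D5 libraries of p1 to 0 in both D11 libraries, at least 13.3-fold lower against a floor of 3 reads per library (adjusted p = 0.00016, limma). Its smaller falls in p2 and pM, of -3.19 and -3.22, were each lost in several alternatives, among them edgeR (adjusted p = 0.3 and 0.071). Ephb2 rose in p1 and pM (1.34 and 1.20). Both of its calls were lost in the fit on only the compared groups (adjusted p = 0.067 and 0.11), and the pM call also without WT D11 pM replicate 2 (0.12) or WT D5 pM replicate 3 (0.21). Ephb3 was called higher in p1 (1.57). Its differences in p2 and pM, 1.225 and 1.424, were close to the threshold (adjusted p = 0.068 and 0.061, limma). Epha2, Epha6, Epha7, Epha10, Ephb4 and Ephb6 were not called by limma in any domain. Epha8 was called higher in p2 alone (0 to 0.996 against 10.7 and 48.7 normalised counts), a call lost without either of 2 libraries.

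Of the 8 ephrins, Efna3 and Efnb3 were called. Efna3, a GPI-anchored ligand, rose from 36.2, 47.8 and 65.5 normalised counts to 249 and 357 in p1, from 29.9 to 67.7 up to 516 and 637 in p2, and from 30.4 and 61.8 to 368 and 581 in pM. Its libraries did not overlap in any domain and its log2 differences were 2.60, 3.56 and 3.38. Efnb3, a transmembrane ligand known as a midline barrier to corticospinal axons, rose in p2 from 268 to 281 normalised counts to 757 and 718, and in pM from 199.6 and 258 to 465 and 639.8. The pM call (adjusted p = 0.044) was lost without any 1 of its 4 libraries, and with edgeR or TMM scaling. The abundant Efna4, Efna5, Efnb1 and Efnb2 were not called by limma in any domain. Efnb2 in p1 was close to the threshold (0.88, adjusted p = 0.052) and was called by DESeq2 (0.034), with the replicate block (0.049), with correlated libraries (0.041) and without the libraries of high total (0.041), WT D11 p1 replicate 2 (0.023) or WT D5 p1 replicate 2 (0.021). The log2 difference of Efna5 was -0.47, -1.10 and -1.19 in p1, p2 and pM, and its p2 difference was called without the libraries of high total (0.041).

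Netrin-1 and its attractive receptor rose in every domain. Ntn1, the netrin of the ventral neural tube, was at 521 to 730.2 normalised counts in p1 at D5 and at 2016 and 2881 at D11. In p2 it went from 689.8 to 781 up to 3741 and 3595, and in pM from 519 and 424 to 2502 and 3069. D11 exceeded D5 in every library, with log2 differences of 1.91 ± 0.45, 2.30 ± 0.45 and 2.56 ± 0.49 and adjusted p of 0.00094, 0.0001 and 0.0001. Dcc, the receptor through which Ntn1 attracts commissural axons, was at 4.78 to 18.6 normalised counts in p1 at D5 and at 546 and 213 at D11, a log2 difference of 5.05 ± 0.95. Its rise in p2, 2.80, was lost without any of 3 libraries (WT D11 p2 replicates 2 and 3, WT D5 p2 replicate 3, adjusted p = 0.11 in each fit). Its rise in pM, 3.92, was lost without WT D11 pM replicate 2 (0.065) or WT D5 pM replicate 3 (0.1) and in the fit on only the compared groups (0.073). Among the repulsive netrin receptors, Unc5a was called lower in p1, by 2.22 on the log2 scale, and Unc5b in pM, by 2.88. Without a call, Unc5a differed by -1.41 in p2 and -0.76 in pM. Unc5b differed by -2.35 in p1 (adjusted p = 0.051, limma) and -1.69 in p2. Unc5d was called higher in pM, by 3.27, against 0.61 and 0.97 in p1 and p2, and Unc5c was not called. Of a floor plate list, 3 of 8 genes tested were called higher in p1, 4 higher and 1 lower in p2, and 2 each way in pM. The sum of its 9 genes went from 376 to 451 normalised counts in p1 at D5 to 2770 to 2973 at D11, from 312 to 783 up to 6492 to 6852 in p2, and from 1091 to 1150 up to 6927 to 9114 in pM. Shh and Foxa2 of this list were at D11 means of 5.91 and 0.889 in pM, 63.6 and 57.5 in p2, and 23.8 and 32.2 in p1. Most of the sum at D11 thus came from other genes of the list. The part of floor plate cells in the Ntn1 values was not tested.

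**Figure D2:**
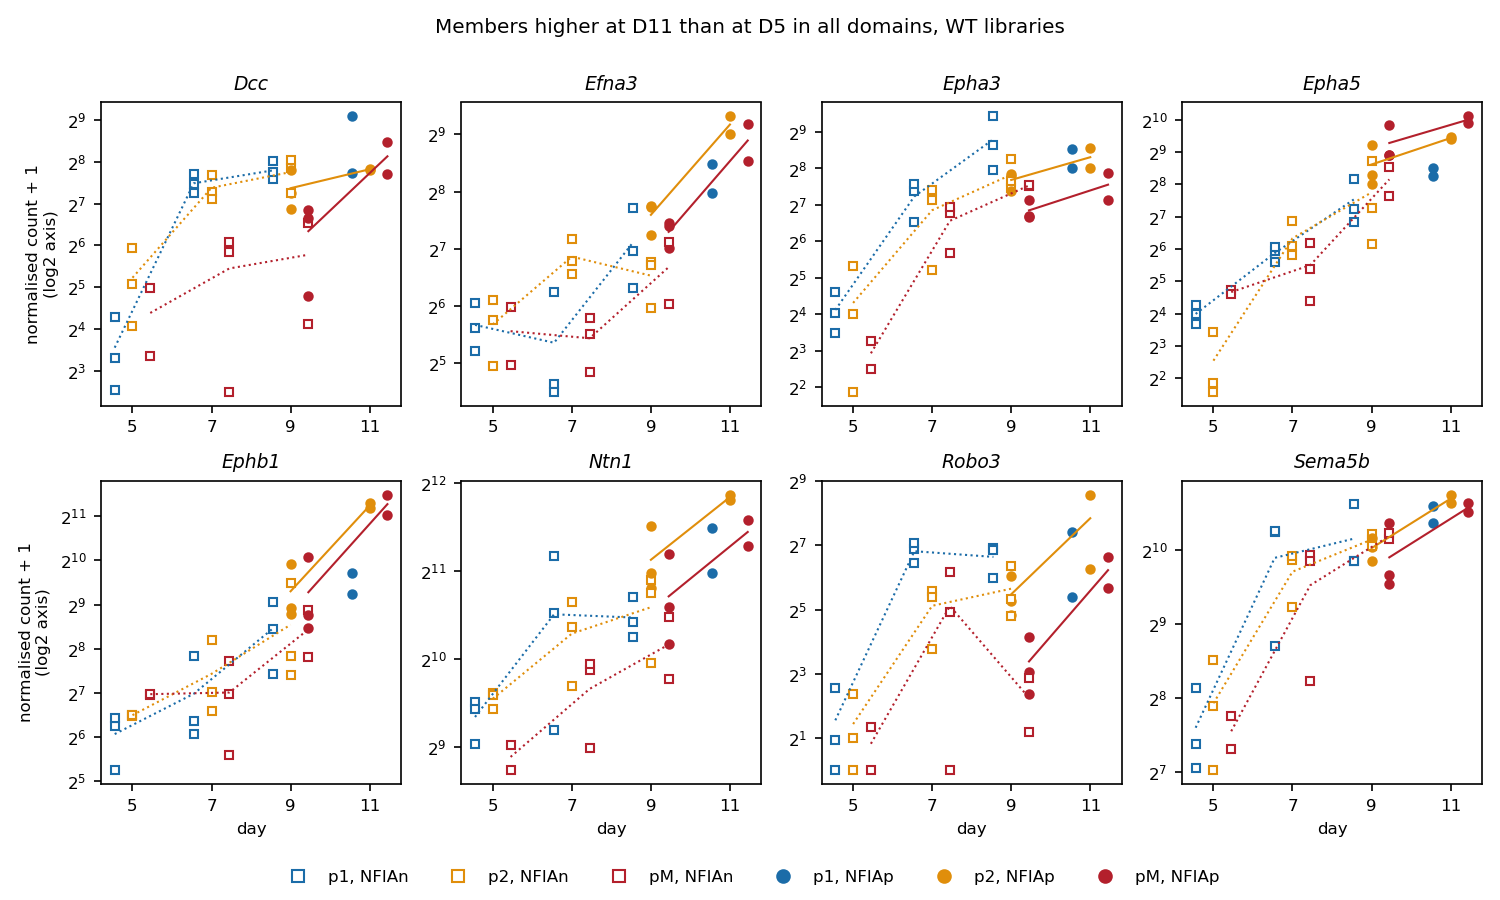
The 8 members called higher at D11 in all 3 domains in WT, as normalised count + 1 on a log2 axis against day; points are libraries (open squares NFIAn, filled circles NFIAp), colours are domains and lines join group means within a gate. At D5 Robo3 is near 0 in all 3 domains, Epha5 is lowest in p2, and Ntn1 is at 424 to 781.

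Among the 13 membrane semaphorins 7 rose and 1 fell in p1, 4 rose in p2 and 2 in pM. Among the 6 secreted semaphorins none was called higher in any domain, and Sema3d fell in p1 and p2. Over all genes 14%, 14.2% and 10.7% were called higher in p1, p2 and pM, so none of 6 is near that background, and the families were not tested against each other. The Sema3d calls were lost without WT D11 p1 replicate 2 in p1 (adjusted p = 0.37) and without either D11 replicate in p2 (0.24 and 0.053), and each without 2 D5 libraries of its domain. Sema5b, a transmembrane semaphorin with thrombospondin repeats, was at 280.2, 166 and 132 normalised counts at D5 in p1 and at 1546 and 1310.4 at D11. Its log2 differences were 2.95, 2.88 and 3.04 with adjusted p between 3.8e-07 and 2.1e-06, the most even rise over domains among the members called in all 3. Sema6d, a ligand of class A plexins, rose in p1 from 40.8, 40.2 and 39.1 to 944 and 468, and in pM from 51.3 and 22.4 to 315 and 211. In p2 it went from 95.6, 95.9 and 97.6 to 283 and 213, which was not called (1.34, adjusted p = 0.25). Sema6a rose in p1 and p2 (1.82 and 1.46), as did Sema6b and Sema6c. Sema4g and Sema4b were called higher in p1, and Sema4d fell there by 2.66. Sema4g differed by 3.52 in p1, and by 2.23 and 1.39 in p2 and pM without a call. The Sema4b call rests on WT D11 p1 replicate 3, at 927 normalised counts against 145 in replicate 2 (adjusted p = 0.47 without it). Of the plexins, Plxna4, a partner of neuropilins, rose in p1 (17.6, 27.7 and 4.89 to 204 and 80.5), Plxnc1 in pM (92.2 and 67.2 to 357 and 235) and the scarce Plxnb3 in p1. The abundant Plxna1, Plxna2, Plxnb1 and Plxnb2 and both neuropilins were not called by limma, nor was Plxnd1, the receptor of Sema3e (1.49, 0.76 and -2.10 in p1, p2 and pM).

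Among Robo receptors, Robo3 rose from near 0 in all 3 domains. This receptor lets commissural axons cross the midline. It was at 0.928, 0 and 4.89 normalised counts in p1 at D5 and at 168 and 40.7 at D11, and in p2 it went from 0.996, 0 and 4.13 to 75.8 and 380.1. The log2 differences were 5.22, 6.30 and 5.47. The calls were lost in p1 without WT D11 p1 replicate 2 (adjusted p = 0.062) and in pM without WT D5 pM replicate 2 (0.063). Robo2, a receptor of Slit repulsion, fell in pM from 626 and 413 to 78.2 and 76.1 (-2.71 on the log2 scale, adjusted p = 0.0038), a call lost without WT D5 pM replicate 2 (0.061). Its differences in p1 and p2, -0.44 and -1.20, were not called. Robo4, a receptor known from endothelium, was called in p1 at 9.71 and 15.4 normalised counts against 0 in all 3 D5 libraries, at least 4.38-fold higher, but neither edgeR nor DESeq2 called it, nor limma without WT D11 p1 replicate 3. The endothelial list of 9 genes summed to 95.9 to 172 normalised counts in those D11 libraries and 83.2 to 251 at D5.

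Robo1 was the member whose change over time differed among domains (F test in limma, adjusted p = 0.0093), against 0.891% of all genes called by this test. In p1 it was at 187, 301 and 153 normalised counts at D5, 338, 381 and 243 at D7, 761, 849.9 and 825 at D9, and 1642 and 1714 at D11. In p2 it went from 172, 227 and 179 at D5 to 416 and 422 at D11, and in pM from 282 and 160.0 to 277 and 248. The D11 level in p1 was thus above all p2 and pM libraries, and the rise in p1 was 3.03 ± 0.38 on the log2 scale, against 1.13 ± 0.38 for p2 and 0.30 ± 0.42 for pM. The call was lost without WT D11 p1 replicate 3 (adjusted p = 0.061) or WT D5 pM replicate 2 (0.069), and in the fit on only the compared groups (0.056). With other settings or without WT D5 p1 replicate 2, up to 3 members were called. MUT libraries showed the same order at D11, with Robo1 at 1418 and 1244 normalised counts in p1, 423 and 625 in p2 and 128 and 329 in pM. The neuron list also differed in this test, with 5 of its 16 genes called, as did the neurogenic progenitor list, with 6 of 12. The neuron sum at D5 was 2300 to 2352 in p1 and 11398 to 14419 in pM. The part of these 2 lists in the Robo1 result was not tested.

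The Slit ligands are secreted repellents that bind Robo receptors. Slit1 was at 23.1 to 324.8 normalised counts in all WT libraries up to D9. At D11 it was at 832 and 957 in p2 and 938 and 1775 in pM, but at 62.6 and 112 in p1. It rose by 3.85 ± 0.73 on the log2 scale in p2 and by 4.27 ± 0.80 in pM, while its difference in p1, 0.53 ± 0.73, was not called. The test of a difference among domains gave an adjusted p of 0.11, so this difference did not pass. Slit3 in pM was at 175 and 170.0 normalised counts at D5, 1239, 1565 and 724 at D7, 1275 and 959 at D9 in NFIAn cells, and 269.7 and 367 at D11. In p1 it fell from 137, 71.8 and 105 at D5 to 47.5 and 23.5 at D11 (-1.57, adjusted p = 0.027), a call lost without any of 3 libraries. Slit2 in pM stood at 105 and 41 normalised counts at D5, 655, 597 and 548 at D7 and 142 and 153 at D11, so its D5 to D11 change was not called in any domain. A list of 8 motor neuron genes followed a like course in pM, summing to 2013 to 2080 normalised counts at D5, 11217 to 13738 at D7 and 3585 to 3911 at D11. Its part in the Slit2 and Slit3 values was not tested.

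**Figure D3:**
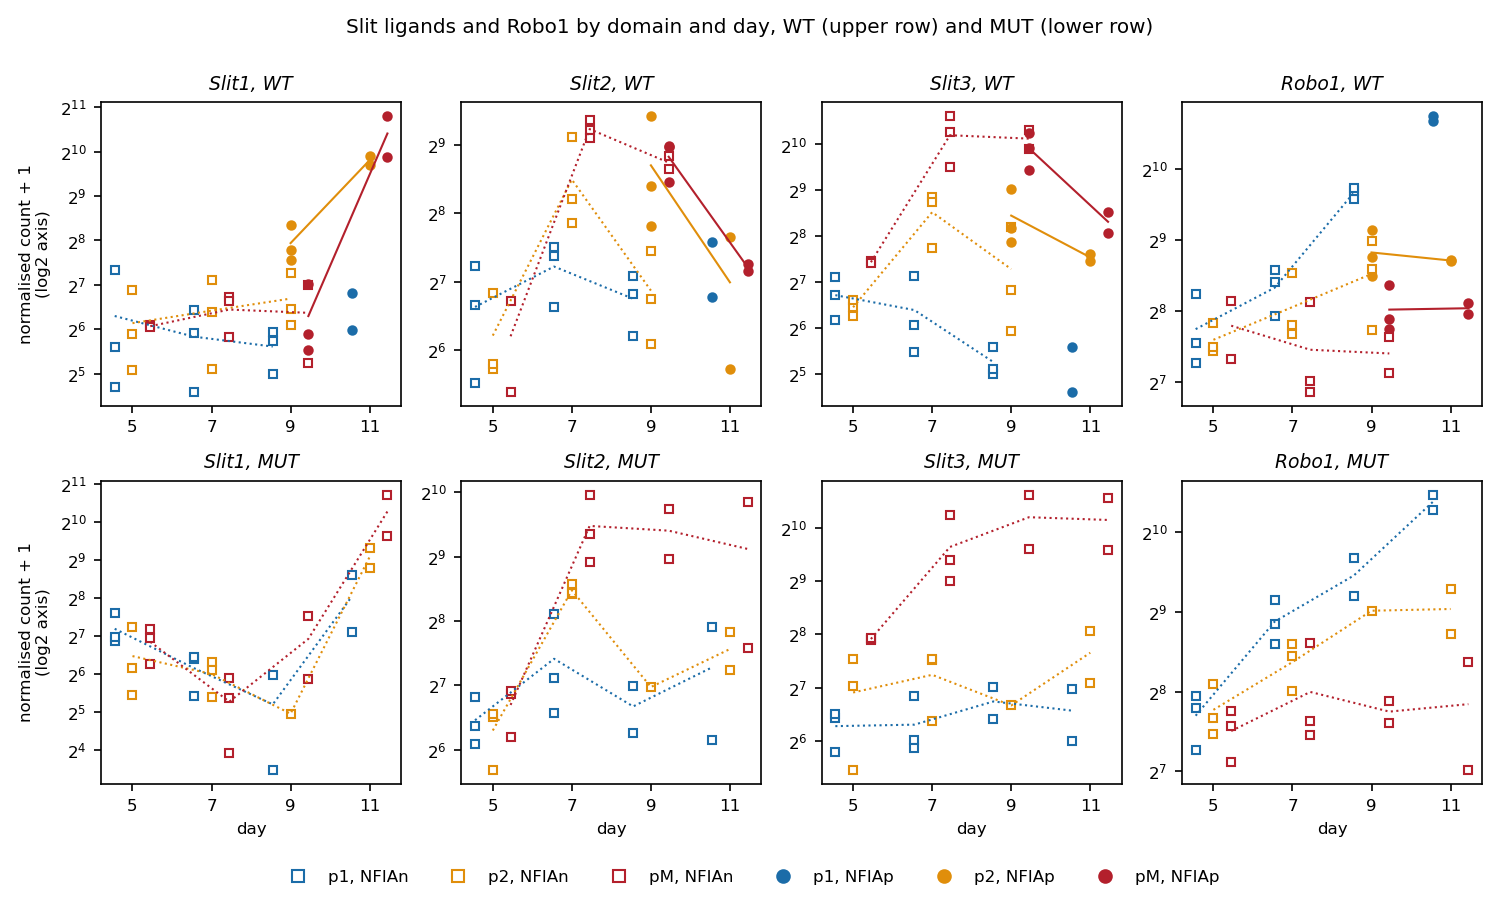
Slit1, Slit2, Slit3 and Robo1 in WT (upper row) and MUT (lower row), as normalised count + 1 on a log2 axis against day; points are libraries (open squares NFIAn, filled circles NFIAp), colours are domains and lines join group means within a gate. Slit3 is highest in pM on every day in both genotypes, and Robo1 at D11 is highest in p1.

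Several calls of this comparison rested on single libraries. In p1, leaving out WT D11 p1 replicate 2 ended those of Epha4 (which rose by 1.20), Sema6a, Sema4d, Plxna4, Unc5a and Ephb3, and leaving out replicate 3 ended those of Sema6b, Sema6c, Plxnb3, Ephb3 and Ntn5 (which rose by 3.89). Epha4, Sema4b, Sema6c, Plxna4, Unc5a and Ntn5 also depended on D5 libraries of p1. In p2, Sema6a and Efnb3 depended on WT D11 p2 replicate 2, Sema6b, Sema6c and Efnb3 on replicate 3, and Robo1 on either replicate. In pM, Dcc, Ephb2, Plxnc1, Sema6d and Unc5b depended on WT D11 pM replicate 2 and WT D5 pM replicate 3, and Unc5d on replicate 3 of both days. The calls of Epha3, Epha5, Ephb1, Ntn1 and Sema5b held in all 3 domains under each alternative run.

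The 61 other axon guidance genes listed beside the members (adhesion molecules, cytoplasmic effectors of growth cone collapse and cytoskeletal regulators) were likewise mostly higher. Of the 60 tested, 21 rose and 2 fell in p1, 23 and 2 in p2, and 14 and 1 in pM. Dcx, a microtubule-associated protein of migrating neurons, rose from a mean of 15.3 to 1007 normalised counts in p1. Pak3, a kinase downstream of Rac, rose from 86.5 to 1661 and Cntn1, a neuronal adhesion molecule, from 3.76 to 126 in the same domain. Nrcam, a neuronal adhesion molecule too, fell in p2 from a mean of 1464 to 548. Dcx and Gap43 are also among the 16 neuron genes above.

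The day-to-day steps in WT placed these changes in time. From D5 to D7, averaged over the 3 domains, 23 members were called, 14 higher and 9 lower, or 33.8% against 19.6% of all genes (10% higher, 9.51% lower), with a median log2 difference of 0.19 against -0.02. Robo3, Epha3, Dcc, Epha5, Slit2, Sema5b and Slit3 rose in this step, and 4 of the 6 secreted semaphorins fell. Sema3e, which signals through plexin D1, was at 26.8 to 107 normalised counts in the 8 D5 libraries (median 77.4) and at 0 to 17.9 in the 9 of D7 (median 2.58). The ranges did not overlap, and the log2 difference was -4.28 ± 0.69 (adjusted p = 6.4e-06). Sema3a, a repellent of sensory and motor axons, went from 182 to 449 (median 405) to 43.8 to 207 (median 118), a fall of 1.59 on the log2 scale. It overlapped between the days only across domains. Sema3b and Sema3c fell by 2.21 and 1.20 on the log2 scale, and both calls were lost without the libraries of high total. Robo2 fell by 1.17 and Epha7 by 0.92, whereas Sema3d rose by 1.86 before it fell. The Robo2 and Epha7 calls were lost without WT D5 pM replicate 2, and that of Sema3d without any of 4 libraries. Leaving out WT D5 pM replicate 2 left 15 of the 23 calls, and a fit allowing correlated libraries left 11. In the same step 15 of the 16 neuron genes rose, and the part of neurons in these values was not tested.

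From D7 to D9, in NFIAn cells of the 3 domains, 12 members were called, 6 in each direction, or 17.6% against 14.4% of all genes (6.3% higher, 8.09% lower). Sema3d fell from 36.9 to 211 normalised counts at D7 (median 92.2) to 0 to 11.4 at D9 (median 3.15). No D9 library reached the lowest of D7 and the log2 difference was -4.48 ± 0.62 (adjusted p = 5.3e-07). Unc5c, Sema3f, Unc5a, Robo2 and Ephb6 also fell, with log2 differences of -2.62, -2.27, -1.67, -1.54 and -1.29. Epha5, Sema6c, Ephb1, Efna3, Sema6a and Robo1 rose, by 1.81, 1.54, 1.37, 0.91, 0.76 and 0.61. The calls of Efna3 and Robo1 were lost without any of 4 and 10 libraries. A fit allowing correlated libraries called 6 members. All replicate 2 and 3 libraries of D9 and the replicate 3 libraries of D7 are among those of high total, and without them the Unc5c call was lost (adjusted p = 0.075) while those of Sema3d, Robo2 and Unc5a were kept. The Ephb6 call was also lost without them and without any of several single libraries. In the same step 8 of 12 genes of neurogenic progenitors were called higher and 5 of 11 mesenchymal genes lower. The mesenchymal sum went from 756 to 3212 normalised counts to 285 to 588 in p1 and from 785 to 2788 to 246 to 483 in p2, and the part of these cells was not tested.

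From D9 to D11, in NFIAp cells of p2 and pM, 10 members were called, 8 higher and 2 lower, or 14.7% against 10.1% of all genes (6.16% higher, 3.98% lower), with a median of 0.59 against 0.05. Slit1 was at 45.1 to 325 normalised counts in the 6 D9 libraries (median 159) and at 832 to 1775 in the 4 of D11 (median 948). The 2 days did not overlap and the log2 difference was 3.04 ± 0.52 (adjusted p = 4.6e-05). Slit2 and Slit3 moved the other way in the same cells. Slit2 went from 225 to 684 normalised counts to 51.7 to 201, falling by 1.73, and Slit3 from 234 to 1220.4 to 176 to 367, falling by 1.20 (adjusted p = 0.036), a call lost without any of 7 libraries. Plxna4, Ephb1, Sema5a, Sema6d, Efna3, Efnb3 and Plxna2 rose, by 2.74, 2.09, 2.03, 1.95, 1.58, 1.44 and 1.22. Of the 6 D9 libraries, the 4 of high total had a member share of 0.0434% to 0.0577%, against 0.0894% and 0.1087% in the other 2, and no D11 library is of high total. Without the libraries of high total the calls of Ephb1 (1.25, adjusted p = 0.05), Efna3 (1.41, 0.075) and Plxna4 (1.61, 0.34) were lost. The calls of Plxna4, Sema5a and Sema6d were lost without WT D11 pM replicate 2, and those of Slit2, Plxna4, Sema6d and Plxna2 without WT D11 p2 replicate 2. Because the gate is the same on both days, this step does not mix day with gate. Leaving out WT D11 p2 replicate 2 left 5 calls and leaving out WT D11 pM replicate 2 left 6. An astroglial list of 13 genes summed to 62621 to 115560 normalised counts at D9 and to 83714 to 198209 at D11 in these cells, mostly Fabp7, and its part was not tested.

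Between domains, with days averaged, few members differed. In WT p2 against p1, 4 were called, 2 higher and 2 lower, or 5.9% against 1.83% of all genes (1.28% higher, 0.554% lower). Slit3 and Slit1 were higher in p2, by 1.54 and 1.27, while Robo1 and the semaphorin co-receptor Nrp1 were lower, by -0.91 and -0.73. Nrp1 was at 114 to 515 normalised counts in the 11 p2 libraries (median 346) and 331 to 755 in the 11 of p1 (median 558), overlapping across days but not within 3 of the 4 days. Its call was lost without WT D11 p1 replicate 3, WT D11 p2 replicate 2 or WT D9 p2 replicate 3. The Slit1 call (adjusted p = 0.039) was lost without any of 14 libraries, and without WT D11 p2 replicate 2 only 2 members were called. In WT pM against p2, 3 were called, 1 higher and 2 lower, or 4.4% against 2.46% of all genes (0.687% higher, 1.77% lower). Slit3 was at 170.0 to 1565 normalised counts in pM (median 724) and 60.2 to 463 in p2 (median 176), and pM exceeded p2 without overlap on all 4 days. Its log2 difference was 1.64 ± 0.27 (adjusted p = 7.2e-05). Plxna2, a class A plexin, was lower in pM by -0.91 and Epha1 by -2.02, and both calls were lost without WT D11 pM replicate 2, among other libraries. Leaving out WT D11 pM replicate 2 left 1 call and leaving out WT D7 pM replicate 1 gave 7.

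The MUT libraries gave the same comparisons in cells that are all NFIAn. For MUT p2 against p1, limma called none of the members (0.598% of all genes), edgeR none and DESeq2 1, with 9 at an unadjusted p under 0.05, and the group of MUT D9 p2 holds a single library. For MUT pM against p2, 5 were called, 3 higher and 2 lower, or 7.4% against 3.26% of all genes (1.51% higher, 1.75% lower). Slit3 was again higher in pM, at 236 to 1580.0 normalised counts (median 721) against 42.6 to 267 in p2 (median 134), without overlap on all 4 days. The log2 difference was 2.40 ± 0.29 (adjusted p = 1.7e-07). Slit2 and Nrp2, the neuropilin that binds Sema3f, were higher in pM by 1.23 and 0.95, and Robo1 and Sema6d were lower by -0.83 and -1.60. The calls of Slit2, Robo1 and Sema6d were lost without MUT D9 p2 replicate 3 and without the libraries of high total. Without MUT D9 p2 replicate 3, the only library of its group, 2 members were called, and without MUT D11 pM replicate 2 the count was 3. The motor neuron list was higher in pM in MUT as well, at 10284 to 11551 normalised counts against 1729 to 2424 in p2 at D11.

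The NFIA gate at D9 compared NFIAp with NFIAn cells of p2 and pM, 6 libraries against 5. No member was called by limma, edgeR or DESeq2, against 0.204% of all genes in limma, and 11 members had an unadjusted p under 0.05. Within domain and replicate number NFIAp exceeded NFIAn in all 5 pairs for Epha5 and for Ephb1, a count not made over all genes. The labels do not state that libraries of one number are paired. With a replicate block within day 5 members were called, Ephb1 (1.01, adjusted p = 0.015) and Ntn1 (0.64, 0.0096) among them, and with correlated libraries 2. The share of all genes called under these 2 settings is not given here, so these counts have no background to be set against. In p2 Epha5 was at 598, 313 and 259 normalised counts in NFIAp and at 419.9, 153 and 69.6 in NFIAn for replicates 1, 2 and 3. Over both domains Epha5 was at 259 to 905 normalised counts in NFIAp and 69.6 to 419.9 in NFIAn, overlapping, with a log2 difference of 1.13 ± 0.46 and an adjusted p of 0.45. In p2 a mesenchymal list of 11 genes was also higher in the 3 NFIAp libraries, summing to 1706 to 3485 normalised counts against 246 to 483 in NFIAn. A list of 12 neurogenic progenitor genes was lower there, at 38897 to 52670 against 88099 to 106901. Over both domains 3 of these 12 genes were called lower and 1 mesenchymal gene higher. The astroglial sum was 77197 to 115560 in NFIAp and 47082 to 50036 in NFIAn in pM, and overlapped in p2. The part of these cells was not tested.

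MUT and WT were compared within each day over the 3 domains. At D5, D7 and D9, where both are NFIAn, limma called no member, against 0.458%, 2.03% and 0.7% of all genes. At an unadjusted p under 0.05 there were 5, 8 and 8 members. DESeq2 called 1, 0 and 1, and edgeR called none on these days. With a replicate block within day, added after seeing the data, limma called members on each of these days and more than 2 at D11. The absence of calls thus depends on leaving that block out. The share of all genes called with that block is not given here, so these calls have no background to be set against. At D11, 2 members were called, 1 higher and 1 lower in MUT, or 2.9% against 4.14% of all genes (1.8% higher, 2.34% lower), a share below the background. Ephb3, a receptor of B-type ephrins, was at 550.1 and 578 normalised counts in p1, 467 and 218 in p2 and 393 and 348 in pM in WT. In MUT it was at 200.4 and 165, 123 and 217, and 179 and 287. The genotypes did not overlap within any domain, although in p2 the lowest WT library was at 218 and the highest MUT library at 217, and the log2 difference was -1.10 ± 0.32 (6 against 6 libraries, adjusted p = 0.036). The call was lost with edgeR (0.052), with TMM scaling (0.055) and without any of 7 libraries. Sema4c, a ligand of plexin B2, was at 100.3 and 42.5 in p1, 112 and 156 in p2 and 88 and 136 in pM in WT, and at 198 and 381, 123 and 269.8, and 223 and 324 in MUT. MUT exceeded WT without overlap in p1 and pM but not in p2, with a log2 difference of 1.27 ± 0.31 (adjusted p = 0.01), lost without any of 4 libraries.

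**Figure D4:**
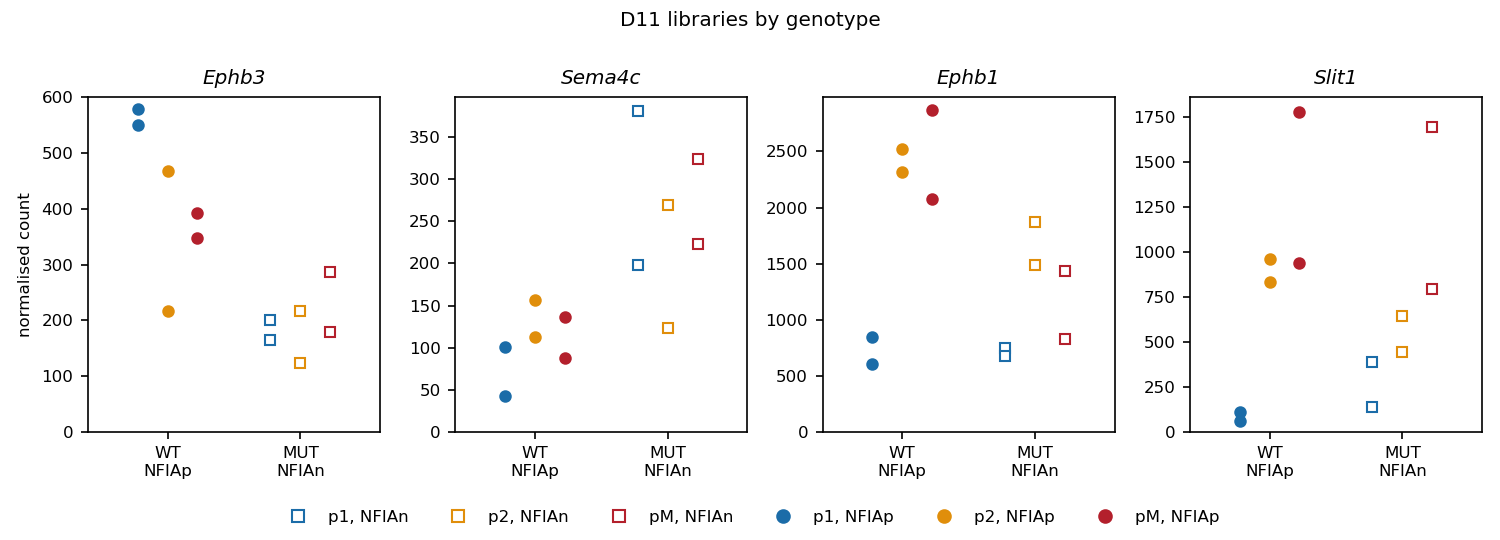
Ephb3, Sema4c, Ephb1 and Slit1 in the 12 D11 libraries, as normalised count on a linear axis from 0, by genotype; points are libraries and colours are domains. Ephb3 is lower and Sema4c higher in MUT, while Ephb1 and Slit1 are above 600 and 60 in both genotypes.

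At D11 WT is NFIAp and MUT is NFIAn, so genotype and gate cannot be told apart. The astroglial list also differed between them, with sums of 83714 to 198209 normalised counts in WT and 33068 to 87380 in MUT at D11, and its part in Ephb3 and Sema4c was not tested. No member was called for limma's test of whether the D5 to D11 change differed between genotypes (0.77% of all genes). In that test 6 members had an unadjusted p under 0.05, and edgeR and DESeq2 each called 1. With a replicate block within day limma called members here too, again without a share of all genes to set them against. In MUT at D11 Slit1 was at 443 and 642 normalised counts in p2 and 796 and 1694 in pM, and Ntn1 at 2555 and 3397 in p2, without a call against WT. Slit3 was at 765 and 1506 in MUT pM at D11 against 269.7 and 367 in WT, but over the 3 domains its difference of 1.06 ± 0.35 did not pass the threshold (adjusted p = 0.071). The motor neuron list in pM at D11 differed in the same direction, at 10284 to 11551 normalised counts in MUT and 3585 to 3911 in WT, and its part in the Slit3 values was not tested.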

How the data were processed

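Gene expression was measured by RNA-seq of polyadenylated RNA from 66 sorted libraries. The authors deposited 1 table of normalised read counts per gene, a signal obtained by dividing each library's counts by a DESeq2 size factor, with reads mapped to mm10, per the submitters' processing notes. The aligner, the counting and the versions are not given in the sources used here. Every value is a whole multiple of what 1 read is worth in its library within a tolerance of 0.01, so reads were recovered and used for depth and for the count tests. Because counting is not stated to use strand, reads of a gene and of an overlapping antisense gene cannot be told apart.

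Values were tested with limma 3.58.1 (R 4.3.3, variance trend allowed) after taking log2(normalised count + 1), so a log2 difference understates the change of low genes. Genes with at least 10 in at least 2 libraries entered (15714). All 26 groups shared 1 fit, and tests were two-sided with Benjamini-Hochberg adjustment over all genes. "Called" means an adjusted p under 0.05, and errors of log2 differences are standard errors of the limma fit. The single library of MUT D9 p2 was assumed to vary like the other groups. edgeR 4.0.16 and DESeq2 1.42.0 on recovered reads, a pseudocount of 8, no filter, TMM scaling, only the compared groups, correlated libraries, a replicate block, no libraries of high total and each library left out were alternatives. A replicate block within day was added after seeing the data. The code was tested on simulated data.

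The members and lists were chosen with earlier results of these data known. In each comparison up to 10 called members per direction whose higher group averaged 50 or more, a fixed set of 22 members and up to 3 other guidance genes per direction were eligible to be named. Others, such as Epha8, Robo4, Plxnb3 and Ntn5, were named after their values were seen. Promoters came from RefSeq (GRCm38.p6) and gene positions from GENCODE M21.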

Additional observations from a re-analysis of the deposited data

Results flagged for a closer look

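In the main fit Robo1 was the only member whose D5 to D11 change in WT differed among the 3 domains (limma F test, adjusted p = 0.0093). This is 1.5% of the members, against 0.891% of all genes. Other settings called up to 3 members. Robo1 rose in p1 by 3.03 on the log2 scale and in p2 by 1.13, and its change in pM was 0.30. The call was lost without WT D11 p1 replicate 3 (adjusted p = 0.061) or WT D5 pM replicate 2 (0.069), and in the fit on only the compared groups. Groups hold at most 3 libraries, so no test for a single outlying library was made within a group.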

How the results depend on the processing

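Counts of members called by limma at an adjusted p under 0.05 are given first with all libraries. Leaving out each library in turn gave 20 to 25 for D5 to D11 in p1 (27), 11 to 17 in p2 (17), 10 to 14 in pM (17) and 0 to 2 for its difference among domains (1). It gave 15 to 23 from D5 to D7 (23), 10 to 13 from D7 to D9 (12) and 5 to 11 from D9 to D11 (10). For p2 against p1 it gave 2 to 6 (4) and for pM against p2 1 to 7 (3), and in MUT 0 to 1 (0) and 2 to 6 (5). The gate gave 0 to 1 (0), MUT against WT 0 to 1 at D5, 0 to 0 at D7, 0 to 1 at D9 and 0 to 3 at D11 (0, 0, 0 and 2), and the genotype difference in the D5 to D11 change 0 to 2 (0). A fit on only the compared groups called 8 for D5 to D11 in pM, 0 for the difference among domains, 1 for pM against p2, 1 for MUT p2 against p1, 3 for MUT pM against p2, 1 for MUT against WT at D5 and 0 at D11. Allowing correlated libraries (estimated correlation 0.375) called 3 for the difference among domains, 11 from D5 to D7, 6 from D7 to D9, 10 for p2 against p1, 11 for pM against p2, 2 and 10 for the same in MUT, 2 for the gate and 0 for MUT against WT at D11. DESeq2 called 2 for the difference among domains, 8 for p2 against p1, 6 for pM against p2, and 1 each for MUT p2 against p1, MUT against WT at D5 and D9 and the genotype difference in change. edgeR called 1 for MUT against WT at D11 and 1 for the genotype difference in change. A pseudocount of 8 called 2 for the difference among domains and 1 for MUT p2 against p1, and TMM scaling 1 for MUT against WT at D11. Without the libraries of high total the counts were 2 for the difference among domains, 2 for p2 against p1, 2 and 2 for the 2 MUT domain comparisons and 5 for MUT against WT at D11. Deviations from group means correlated at a median of 0.168 in 74 pairs that share genotype, day and number (lowest 0.009, 56 over 0.1) and 0.158 in 89 pairs across genotypes, against -0.099 in 290 pairs of the same day and another number (33 over 0.1). Libraries of one day and number thus tended to deviate together, a hint from the data and not from the labels. Not every pair passed 0.1, and the main fit was kept without a block. Its p-values thus treat libraries of one day and number as independent, which these correlations do not bear out. Modelling the shared deviation moved counts of calls in both directions, so calls and their absence in the main fit depend on this choice. With the replicate block the counts were 18 from D9 to D11, 7 for p2 against p1, 1 for MUT p2 against p1 and 1 for MUT against WT at D9. With the replicate block within day they were 3 for the difference among domains, 10 for p2 against p1, 9 for pM against p2, 5 and 11 for the same in MUT, 5 for the gate, 2, 4, 4 and 8 for MUT against WT at D5, D7, D9 and D11, and 3 for the genotype difference in change. Shares of all genes called under the alternatives are not given here, so these counts have no background to be set against. The causes of these shifts were not tested. No difference of a named member that was called in the main fit or in the alternative reversed direction. Changes of sign without a call were not counted, and the test among domains has no direction. Of 6152 values with 1 library left out, 228 lost and 31 gained a call, and of 4171 under the other alternatives 124 lost and 79 gained one. Both totals include values without a call in the main fit, which had none to lose, so they give no rate of loss. Groups of 1 to 3 libraries limit the precision of every difference.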
